A study of Mus musculus with 28 samples.

Results

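The genes described here encode voltage-gated sodium channels, voltage-gated calcium channels and the hyperpolarization-activated HCN channels, with the auxiliary subunits that accompany them. They were chosen by symbol: 33 symbols were looked up among the 52636 genes of the count files, all 33 were found, and 32 had a count in at least 1 library. The exception was Scn2b, a sodium channel beta subunit, which was listed at 0 in all 28 libraries and whose span lies wholly inside that of the predicted gene Gm10684. All 32 passed the filter on low counts, as did 19171 genes in all.

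The 28 libraries came from 28 female mice, 7 in each of 4 groups, and measured RNA of the ventromedial prefrontal cortex. A virus had been given to every mouse, carrying LacZ as the control or labelled Slit1 KD. Within each virus, 7 mice were taken with no stress and 7 after 3 days of the procedure the labels call sCVS. The sources used here do not give the strain, age or viral promoter, and the tissue was a punch of virally infected cortex, so infected and other cells were measured together. Mice are named below by group and a replicate number that only identifies the library.

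Sodium channels open during depolarization and carry the rising phase of the action potential, and their beta subunits adjust gating and place the channels in the membrane. Calcium channels convert depolarization into calcium entry: the high-voltage-activated types drive transmitter release and signalling to the nucleus, and the low-voltage-activated T types support burst firing. HCN channels open on hyperpolarization, pass a mixed cation current and set resting potential and dendritic integration in cortical pyramidal neurons.

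Some pore-forming sodium channel genes share long runs of identical coding sequence. The effect of these runs on how fragments were assigned was not tested. In GENCODE M21 transcripts of GRCm38, the longest identical coding run was 188 bases between Scn1a and Scn2a and 184 bases between Scn3a and Scn9a. The longest run that Scn8a shared with another of these pores was 55 bases, with Scn3a. For Scn11a it was 35 bases, with Scn2a. Scn1a, Scn2a, Scn3a and Scn9a all lie on chromosome 2.

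The HCN genes differ from the sodium channels in the GC content of annotated transcripts, a property that recurs in the results. It ran from 58.0% to 65.2% in the HCN genes and from 41.9% to 54.5% in the sodium channel genes. The stretch around the selectivity filter is shown for the 3 members, 5' to 3' on the coding strand, from the same transcripts, with capitals for the codons of the glycine, tyrosine and glycine of the filter.
Hcn2: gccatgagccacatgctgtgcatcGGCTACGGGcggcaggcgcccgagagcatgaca
Hcn3: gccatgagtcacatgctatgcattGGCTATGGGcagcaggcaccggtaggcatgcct
Hcn4: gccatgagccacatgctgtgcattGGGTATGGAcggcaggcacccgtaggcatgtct
GC content of this stretch was 66.7% in Hcn2 (chr10:79728935-79728991, plus strand), 57.9% in Hcn3 and 59.6% in Hcn4. The third codon positions of the whole coding sequence were 81.1% GC in Hcn2, 70.6% in Hcn3 and 72.2% in Hcn4. Among the sodium channel pores they ran from 53.1% GC in Scn1a to 74.1% in Scn8a, so the families overlapped on this measure.

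Levels are given in CPM (counts scaled to library depth with TMM factors), and, to compare genes, as CPM per kb of the gene span that was counted, which includes introns. Per kb, Scn2a, the axonal sodium channel of excitatory neurons, stood highest of all members at 5.50, followed by the beta subunit gene Scn3b at 4.38 and Cacna2d1, an alpha2delta subunit and target of gabapentin, at 1.94. Scn3a stood at 1.64, Cacnb3 at 1.57 and Cacna1e, the pore of R-type channels, at 1.28. Scn11a, known from peripheral sensory neurons, stood lowest at 0.00525 CPM per kb. These are means over 28 libraries and the neighbours in this order overlapped in the libraries' values.

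Among the sodium channel pores, Scn2a made up 56.3% ± 1.88 (SD, n = 28) of the summed CPM per kb and ranged only from 51.2% to 59.4% over the libraries. Scn3a, abundant in developing brain, held 16.6% ± 2.11 and Scn1a, prominent in fast-spiking interneurons, held 15.2% ± 1.85, shares closer to each other than their spread. Per kb of annotated exon, a length chosen after the values were seen, Scn1a held 19.9% and Scn3a 12.7%, so the order of these neighbours rests on the length used. Among the high-voltage-activated calcium channel pores Cacna1e held 40.3% ± 6.43, and Cacna1b, the N-type pore, 29.1% ± 2.84. Among the alpha2delta genes Cacna2d1 held 80.1% ± 7.20.

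The cytoplasmic calcium channel beta subunits showed no such fixed makeup. Per kb of annotated exon, Cacnb3 stood at a mean of 4.81 CPM and Cacnb2 at 22.2, the reverse of their order per kb of span. Per kb of span, Cacnb3 held from 6.23% to 62.6% of the beta subunit sum and Cacnb2 from 3.73% to 57.0%, depending on the library. Their group means did not separate: Cacnb3 held 33.3% ± 18.2 (SD, n = 7) in LacZ unstressed mice, 36.3% ± 19.3 in LacZ stressed, 33.3% ± 17.7 in knockdown-labelled unstressed and a mean of 33.5% in knockdown-labelled stressed mice, over a range of 12.8% to 62.4%.

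**Figure D1:**
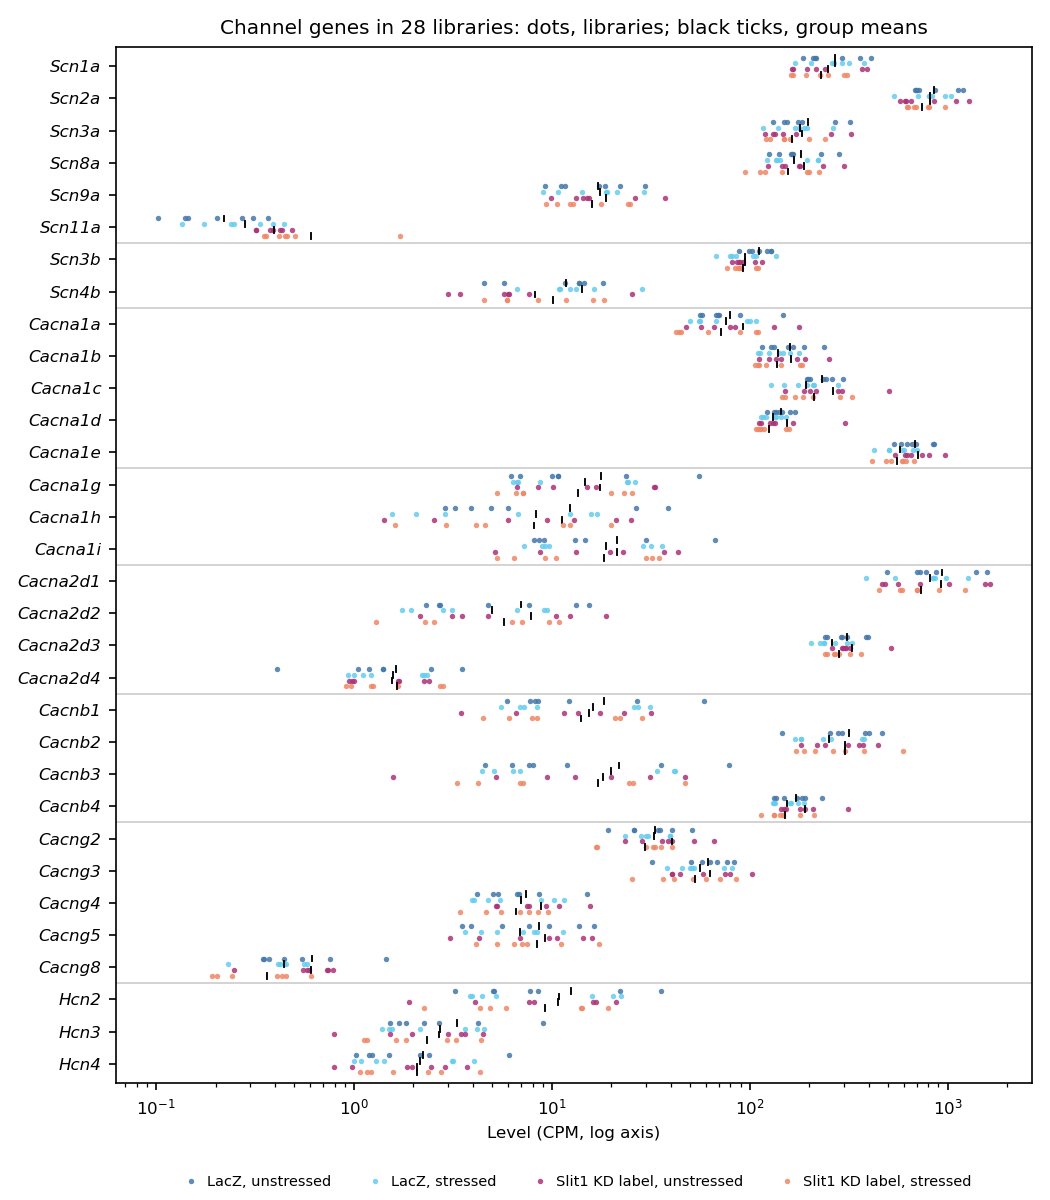
Level of each of the 32 channel genes in every library, in CPM on a log axis, coloured by group, with group means as black ticks and lines between roles. Groups overlap for every gene, and Cacnb3 spreads from 1.58 to 78.6 CPM whereas Scn3b stays between 67.6 and 136.4 CPM.

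The gene named in the virus label was read first. Slit1 stood at 24.4 ± 16.1 CPM (SD, n = 7) in LacZ unstressed and 25.9 ± 17.5 in knockdown-labelled unstressed mice, and at 19.8 ± 10.2 and 18.2 ± 9.8 in the stressed groups. Its log2 fold change for the label over both stress states was -0.02 with a standard error of 0.30 and a 95% interval of -0.64 to 0.60, wide enough to hold a decrease. The counts span introns and ignore strand, so this value does not check the label, and directions below rest on the labels. Total counts ran from 30.6 to 44.3 M fragments per library. In bulk tissue, fewer cells of a type and less RNA per cell cannot be told apart.

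Stress was compared with no stress over both viruses. No channel gene passed an adjusted p under 0.05 (edgeR quasi-likelihood test, Benjamini-Hochberg over 19171 genes), against 0% of all genes called. At an unadjusted p under 0.05 there were 3 members, all lower, against 2.21% of all genes in either direction. Of the 32 members, 29 had a log2 fold change below 0, with a median of -0.21, where 53.7% of all genes lay below 0 with a median of -0.01. Leaving out LacZ unstressed replicate 1 and knockdown-labelled unstressed replicate 2, in each of which 10 members were at their highest, left 21 members below 0 and a median of -0.08. Without those of bone and striatal signal, knockdown-labelled stressed replicates 2 and 7, the values were 28 and -0.23. These settings were chosen after the data were seen. Marker genes of several cell types moved beside this shift, with 0 called in each list. All 11 excitatory cortical markers lay below 0 (median -0.10), as did 7 of 8 interneuron markers (-0.13) and 6 of 7 oligodendrocyte markers (-0.20). All 7 tested microglia and macrophage markers lay above 0 (0.18, P2ry12 was at 0 in every library), as did all 6 cytotoxic T cell markers (0.49). All 6 tested bone and osteoclast markers also lay above 0 (2.04). Their sum was 1818 CPM in knockdown-labelled stressed replicate 2 and 43.4 in the next library, and for stress with LacZ 3 of the 6 lay above 0 (0.03). Astrocyte (-0.06), oligodendrocyte precursor (0.00), striatal (-0.13) and vascular and meningeal markers (0.15) lay on both sides of 0. All 3 tested choroid plexus markers lay below 0 (-0.48). The summed excitatory markers ran from 990.4 to 1983 CPM in unstressed and from 929.0 to 1715 in stressed mice of either virus. Over the same libraries the T cell markers ran from 14.9 to 144.9 and from 11.3 to 202.3 CPM, and the microglia and macrophage markers from 286.2 to 1065 and from 278.5 to 1089. The part of these markers in the stress shift was not tested.

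Cacna1e had the smallest p of the channel genes in this comparison. Its lowest, median and highest levels were 538.3, 660.4 and 854.1 CPM in LacZ unstressed mice and 427.0, 590.3 and 701.6 in LacZ stressed mice. In knockdown-labelled mice they were 540.1, 652.8 and 974.0 without stress and 415.6, 590.1 and 673.4 with it. The stressed libraries reached lower at the bottom and less high at the top under both viruses, with overlap. The log2 fold change was -0.30 ± 0.11 (SE; 95% interval -0.52 to -0.09), with an unadjusted p of 0.00802 and an adjusted p of 1.000 in edgeR. Only 1 of 14 stressed libraries lay above the mean of the unstressed libraries of its virus.

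Cacng8, an AMPA receptor auxiliary protein of the gamma family, had the next smallest p at a very low level. Its levels in unstressed mice ran from 0.346 to 1.46 CPM with LacZ, median 0.444, and from 0.249 to 0.784 with the knockdown label, median 0.595. In stressed mice they ran from 0.232 to 0.582, median 0.446, and from 0.193 to 0.605, median 0.408. The medians of the LacZ groups were nearly equal and the ranges overlapped. The log2 fold change was -0.60 ± 0.23 (edgeR, unadjusted p 0.0153, adjusted p 1.000) and -0.40 without LacZ unstressed replicate 1. Part of the span, 37.7%, overlaps other genes, where fragments were counted for neither.

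Cacna2d3, an alpha2delta subunit, came next, at -0.23 ± 0.11 on the log2 scale. The 5 high-voltage-activated pores all lay below 0, from -0.30 in Cacna1c and Cacna1e to -0.22 in Cacna1a, Cacna1b and Cacna1d. So did the 3 T-type pores, the 4 beta subunits, the 5 gamma family genes and the 3 HCN genes, although most intervals were wide: that of the T-type gene Cacna1h ran from -1.55 to 0.52. The members above 0 were Scn11a at 0.47, Scn4b at 0.29 and Cacna2d4 at 0.01.

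Within the viruses the picture was alike in count. With LacZ, 29 of 32 members were below 0 (54.5% of all genes) with a median of -0.17, and 0 were called (0% of all genes) or had an unadjusted p under 0.05 (0.402% of all genes). Without LacZ unstressed replicate 1 only 17 were below 0 and the median was -0.05. With the knockdown label, 29 of 32 were below 0 (52.5% of all genes) with a median of -0.23 and 0 called (0% of all genes). At an unadjusted p under 0.05 there were 2, Cacna1e and Cacng8 (1.79% of all genes), and the median was -0.11 without knockdown-labelled unstressed replicate 2. Both comparisons use different mice. The difference between them, the interaction, called 0 members (0% of all genes), had 0 at an unadjusted p under 0.05 (0.355% of all genes), and had 19 of 32 below 0 (51.4% of all genes) with a median of -0.03. The smallest interaction p belonged to Cacng2, the AMPA receptor auxiliary protein stargazin, at -0.46 ± 0.33 (edgeR, adjusted p 1.000), and -0.29 without knockdown-labelled unstressed replicate 7. Its medians were 34.5 and 30.5 CPM in LacZ unstressed and stressed mice and 38.5 and 32.6 in the knockdown-labelled groups.

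Scn3b had the second smallest p in the interaction, 0.20 ± 0.19. Its levels ran from 88.8 through a median of 111.7 to 128.9 CPM in LacZ unstressed mice and from 67.6 through 85.5 to 136.4 in LacZ stressed mice. They ran from 81.5 through 89.7 to 114.9 in knockdown-labelled unstressed and from 76.5 through 88.3 to 110.1 in knockdown-labelled stressed mice. The LacZ unstressed median stood above the other 3 medians, with overlap throughout. Its log2 fold change was -0.24 ± 0.13 for stress with LacZ and -0.24 ± 0.13 for the label without stress, comparisons that share the LacZ unstressed libraries.

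The libraries labelled knockdown were compared with LacZ over both stress states. No member was called (0% of all genes), the median was -0.02, equal to that of all genes, and 18 of 32 lay below 0 (55.9% of all genes). At an unadjusted p under 0.05 there was 1 member, Scn11a (1.52% of all genes). With stress 25 of 32 lay below 0 (57.7% of all genes) and without stress 16 (52.9% of all genes), with 0 called in each (0% of all genes). Scn11a alone had an unadjusted p under 0.05 in each of these, against 0.824% of all genes with stress and 0.897% without. Without knockdown-labelled stressed replicates 2 and 7, its unadjusted edgeR p was 0.0727 with stress, 0.00663 without stress and 0.00229 over both. Without LacZ unstressed replicate 1 and knockdown-labelled unstressed replicate 2, it was 0.00407, 0.0918 and 0.00217. Both settings were chosen after the data were seen.

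Scn11a was higher in the libraries labelled knockdown before adjustment, on counts of 3 to 76 fragments per library. It ran from 0.102 to 0.368 CPM, median 0.204, in LacZ unstressed mice and from 0.136 to 0.446, median 0.249, in LacZ stressed mice. The knockdown-labelled ranges were 0.319 to 0.489, median 0.392, without stress and 0.352 to 1.72, median 0.451, with it. All 14 knockdown-labelled libraries lay above the LacZ mean of their stress state, and the ranges overlapped. The log2 fold change was 0.97 ± 0.25 (edgeR, unadjusted p 5.98e-04, adjusted p 1.000). The highest library, stressed replicate 2, also held bone transcripts, with Ibsp at 218.1 CPM and Ctsk at 252.0. Without it the fold change was 0.70, and within stressed mice it went from 1.13 to 0.60. All 6 tested bone and osteoclast markers had a positive label difference, their summed level reached 1818 CPM in that library against 43.4 in the next, and Acp5 was at 0 in every library. Their part in the Scn11a difference was not tested beyond the value without that library.

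Scn4b, the beta subunit linked to resurgent sodium current, had the next smallest p for the label, at -0.50 ± 0.30 (edgeR, adjusted p 1.000). It ran from 4.57 through 13.7 to 18.1 CPM in LacZ unstressed and from 6.64 through 12.4 to 28.5 in LacZ stressed mice. Knockdown-labelled mice ran from 2.99 through 5.99 to 25.5 without stress and from 4.55 through 8.51 to 18.4 with it. The knockdown-labelled medians were lower, and the ranges overlapped. The highest library, LacZ stressed replicate 2, had an interneuron marker sum of 305.7 CPM, rank 25 of 28 from the highest. Pvalb, a marker on that list, stood at 15.7 CPM there, its highest level of the 28 libraries. In knockdown-labelled unstressed replicate 6, the highest of its group, the striatal marker Drd2 stood at 10.3 CPM and Pvalb at 10.9. The striatal marker sum of that library was 407.5 CPM, rank 5 of 28, and its interneuron sum 515.2, rank 4. The fold change was -0.37 without the first of these libraries and -0.81 without the other, and the part of these cell types was not tested.

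**Figure D2:**
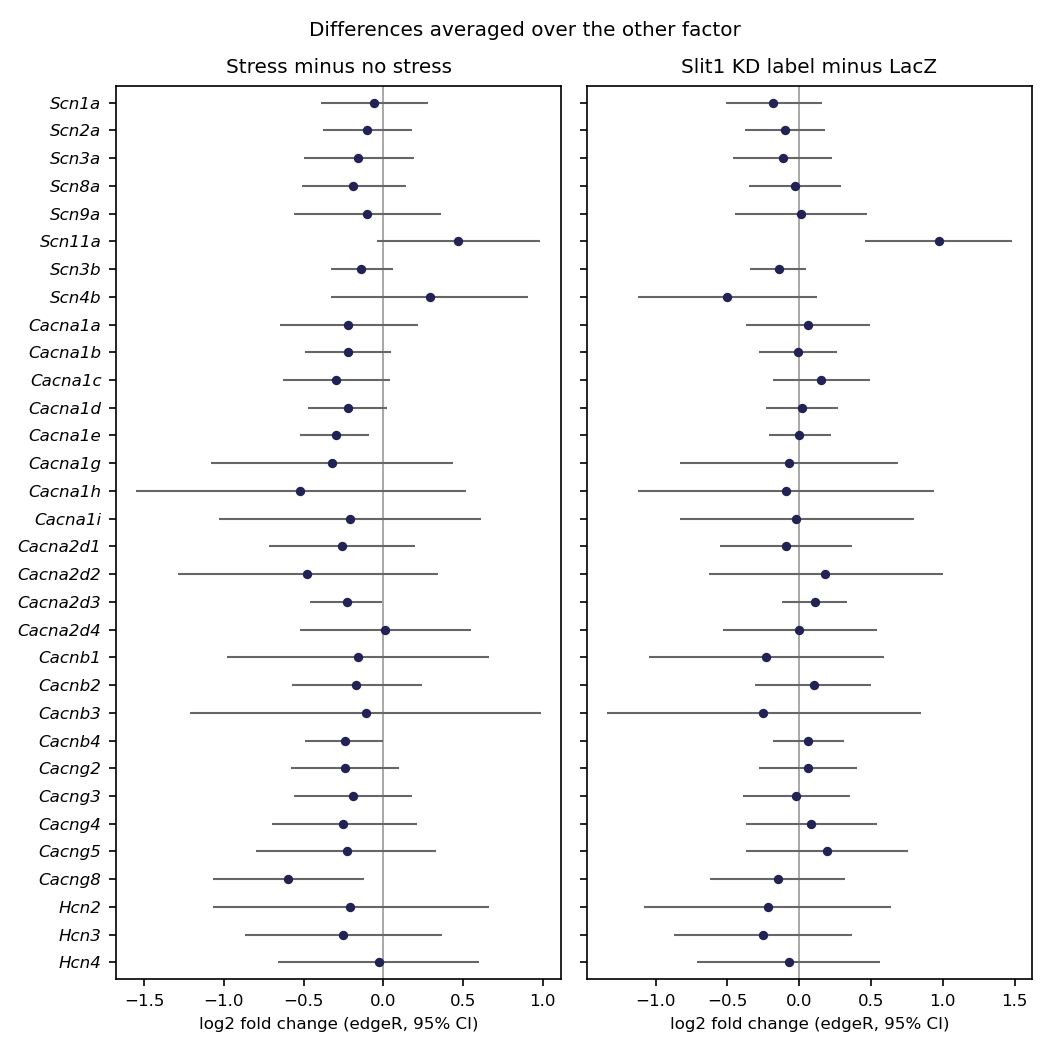
Log2 fold change with 95% interval for each channel gene, stress minus no stress on the left and knockdown label minus LacZ on the right, each averaged over the other factor. Most stress estimates lie left of 0, Cacna1e at -0.30 and Cacng8 at -0.60, whereas label estimates scatter about 0 except Scn11a at 0.97.

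Levels of several channel genes spread widely between mice of the same group: Cacnb3 ran from 4.61 to 78.6 CPM in LacZ unstressed mice, while its group means ran from 17.1 to 21.8. The libraries differed along a first principal component that held 58.8% of the variance, computed without the channel genes and the partner genes below, and that correlated with the log2 share of counts from mitochondrial genes (Pearson r 0.876 over 28 libraries). Differences between the 4 groups made up 0.188% of its variance. The mitochondrial share itself ran from 2.30% to 14.2%. The component also followed the order of the samples' accessions, along which the 4 groups largely alternate: the 8 libraries first in that order all lay below 0, from -1.69 to -0.68, and 11 of the last 12 lay above 0. The labels do not say what the order or the lane of a library was, and neither could be told apart from other sources of the component. With accession order as a covariate, a setting chosen after the data were seen, 24 of 32 members lay below 0 for stress over both viruses with a median of -0.14, and with LacZ alone 21, with a median of -0.06.

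Of the 32 members, 25 were related to the component at an adjusted p under 0.05 (permutation test with 100000 resamples, Benjamini-Hochberg over 19171 genes), close to the 77.2% of all genes. Positive relations numbered 7 (36.1% of all genes) and negative ones 18 (41.2% of all genes). The most positive was Scn9a, a sodium channel of nociceptors and hypothalamus, with Pearson r 0.958 and Spearman rho 0.967. Part of its span, 42.8%, overlaps other genes, where fragments were counted for neither. Scn9a was followed by Scn3a with r 0.904 and rho 0.917 and by Scn1a with r 0.887 and rho 0.888. The most negative were Cacnb3 with r -0.976 and rho -0.973, Hcn2 with r -0.969 and rho -0.950, and Cacnb1 with r -0.968 and rho -0.953. For each of these 6 genes the permutation p of r was 1.00e-05, the smallest the permutations can give, with an adjusted p of 1.96e-05. Without the 2 libraries farthest from the median of the component, r was 0.946, 0.891 and 0.879 for the positive genes and -0.968, -0.960 and -0.964 for the negative ones. Of all members 24 then passed, Cacna1e no longer (r 0.392, adjusted p 0.0624), and 26 passed with group means removed.

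The share of within-group variance on the component was 95.9% for Cacnb3, 95.5% for Hcn2 and 92.4% for Scn9a, and under 1% for Scn3b, Scn11a, Cacng2 and Cacnb4, with 0.00434% in Scn3b. Its median was 69.7% over members and 59.2% over all genes. The within-group SD of Cacnb3 was 1.52 on the log2 scale and 0.31 once the component was taken out, and that of Scn3b was 0.24 before and after.

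Related to the mitochondrial share were also 25 members, against 73.5% of all genes: 6 positively (33.7% of all genes) and 19 negatively (39.8% of all genes). Hcn2, the main HCN gene here by CPM per kb, ran from 3.24 through 7.73 to 35.6 CPM in LacZ unstressed and from 3.86 through 5.24 to 22.4 in LacZ stressed mice. It ran from 1.90 through 8.10 to 21.1 in knockdown-labelled unstressed and from 2.26 through 5.90 to 19.2 in knockdown-labelled stressed mice. Its lowest library, knockdown-labelled unstressed replicate 7, had the highest mitochondrial share, 14.2%. The same library had the lowest total count, 30.6 M fragments, and the fewest genes with a count, 20882. Oligodendrocyte markers summed there to 1930 CPM (next 1119) and astrocyte markers to 4918 (next 4522), the highest sum of each. The excitatory marker sum was 1589 CPM, rank 4 from the highest, and the interneuron sum 714.1, rank 2. The part of depth and cell makeup in the levels of this library was not tested. That library was also the highest for Scn2a at 1288 CPM, Scn3a at 324.6, Scn9a at 37.5 and Cacna2d1 at 1646, while all 3 HCN genes were at their lowest there, Hcn3 and Hcn4 each at 0.790. Scn8a did not share the pattern of these sodium channel genes and stood at 124.5 CPM in that mouse, the lowest of its group. Nor did Scn11a, Scn3b and Scn4b follow the mitochondrial share, with r -0.023, 0.127 and -0.182. For Hcn2 and the mitochondrial share r was -0.830 and rho -0.814, and for Scn3a r was 0.796 and rho 0.817, each r with permutation p 1.00e-05 and adjusted p 2.46e-05, and r without the 2 farthest libraries was -0.817 and 0.766.

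**Figure D3:**
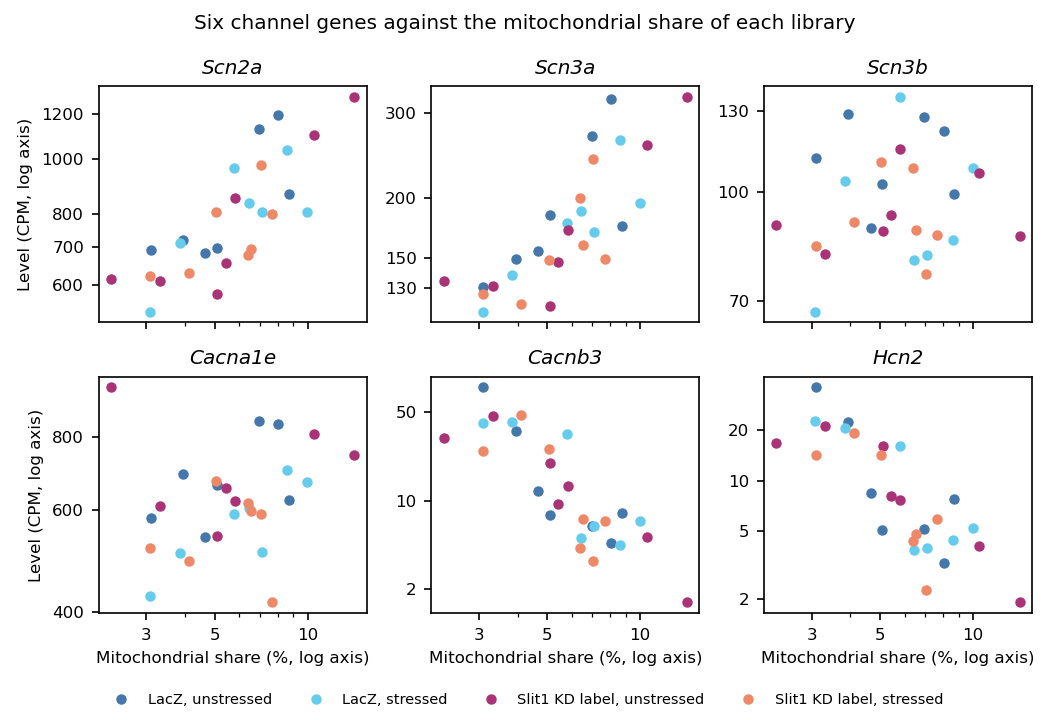
Level of 6 channel genes (CPM, log axis) against the mitochondrial share of the library (percent, log axis), 1 dot per library coloured by group. Scn2a and Scn3a are higher and Cacnb3 and Hcn2 lower where the share is high, all 4 groups are mixed along it, and Scn3b shows no trend.

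The sign of the relation followed the base composition of the transcripts. The 8 members with transcript GC under 47% had r from -0.063 to 0.958, median 0.846. The 11 members at 55% or more had r from -0.976 to -0.564, median -0.922, and the 13 between had a median of -0.464. Across the 32 members the Pearson correlation of r with transcript GC was -0.858, and across all 19120 genes with a GC value it was -0.755. With the log10 length of the counted span it was 0.488 across the 32 members. Transcript GC leaves out the introns, which were counted too. Genes are not independent replicates, and all points share the same libraries. The 3 HCN genes and the 3 T-type pores had a negative r, as did the 5 gamma family genes, although Cacng2 was near 0 at -0.017. Cacna2d1 and Cacnb2 had a positive r, and Scn8a, at 51.6% GC, had r -0.803. Cacnb4 was an exception, with the lowest GC, 39.7%, and r -0.063.

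**Figure D4:**
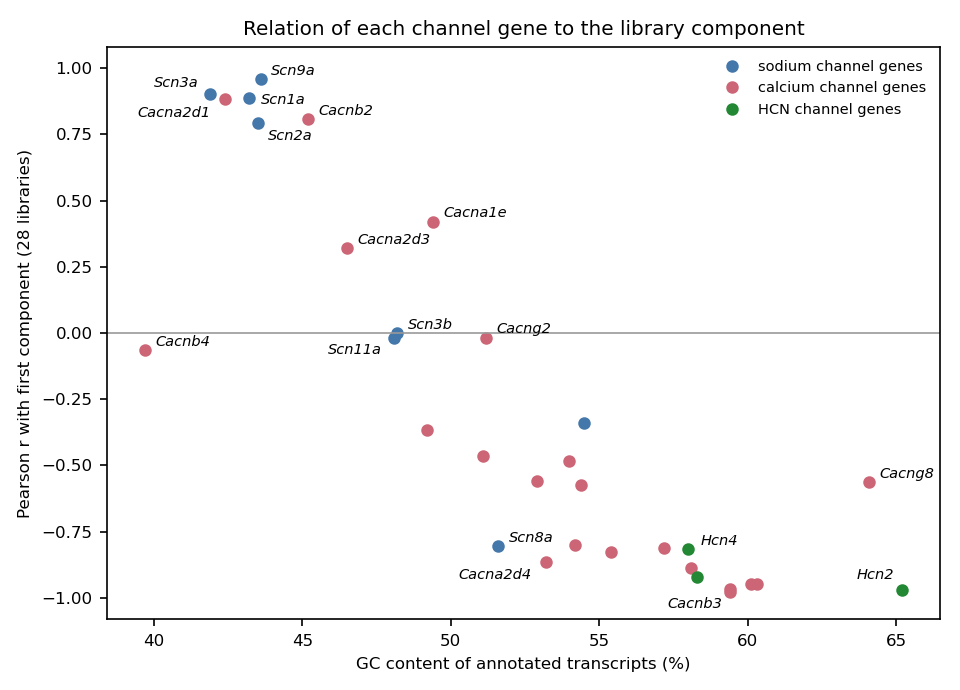
Pearson r of each channel gene with the first component over 28 libraries, against the GC content of its annotated transcripts in percent, coloured by channel family. The sodium channel genes under 44% GC sit between 0.793 and 0.958, and Hcn2, at 65.2% GC, sits at -0.969.

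Promoter composition was compared as well, and members with opposite relations were both GC-rich at their starts. RefSeq promoters of GRCm38.p6 were matched for 25 members. The 250 bases before the start are shown for Hcn2 (chr10:79716384-79716633), Cacna2d1 (chr5:15934441-15934690) and Scn2a (chr2:65620519-65620768), all on the plus strand, with GC boxes (GGGCGG or its reverse complement) in capitals.
Hcn2: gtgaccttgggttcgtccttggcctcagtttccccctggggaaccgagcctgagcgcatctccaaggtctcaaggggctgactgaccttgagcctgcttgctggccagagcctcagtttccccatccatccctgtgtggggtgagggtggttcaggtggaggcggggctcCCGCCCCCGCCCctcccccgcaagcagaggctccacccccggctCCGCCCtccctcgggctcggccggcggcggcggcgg
Cacna2d1: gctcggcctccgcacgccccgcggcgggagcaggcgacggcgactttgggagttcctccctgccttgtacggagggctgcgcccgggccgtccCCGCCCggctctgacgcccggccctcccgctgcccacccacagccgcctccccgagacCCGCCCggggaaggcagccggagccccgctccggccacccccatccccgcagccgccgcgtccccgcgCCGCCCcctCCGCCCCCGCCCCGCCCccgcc
Scn2a: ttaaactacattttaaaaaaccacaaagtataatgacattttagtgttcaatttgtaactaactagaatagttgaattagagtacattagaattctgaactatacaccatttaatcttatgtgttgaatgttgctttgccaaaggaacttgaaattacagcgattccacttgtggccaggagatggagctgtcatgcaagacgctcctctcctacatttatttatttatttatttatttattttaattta
GC content was 70.4% for Hcn2, 82.4% for Cacna2d1 and 29.6% for Scn2a, while r with the component was -0.969, 0.885 and 0.793. Over the 24 members with a promoter and an r, r correlated with promoter GC at -0.184 and with transcript GC at -0.835. The GC box was present in 10 of 25 member promoters and in 32.7% of all 32851 promoters in the table, searched on both strands. The cyclic AMP response element TGACGTCA was in 0 of 25 and in 1.55% of all promoters.

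Single libraries stood out for other members. Knockdown-labelled unstressed replicate 2, with the lowest mitochondrial share, was highest for 10 members. They included the L-type pores Cacna1c at 503.5 CPM, with 327.7 in the next library, and Cacna1d at 304.1, with 168.8 in the next. Its striatal marker sum was 564.8 CPM, rank 2 of 28 from the highest, and its interneuron sum 301.0, rank 26. LacZ unstressed replicate 1 was highest for another 10: the T-type pores, Cacnb1, Cacnb3, the HCN genes, Cacna2d4 and Cacng8, among them Cacna1g at 55.3 CPM, Cacna1i at 66.6 and Hcn3 at 8.99. It had the highest sum of excitatory cortical markers, 1983 CPM. That library also lay lowest of the 28 on the first component, at -1.69. All 10 members highest there had a negative r with the component, from -0.976 in Cacnb3 to -0.564 in Cacng8. Knockdown-labelled stressed replicate 7, where Drd2 stood at 17.5 CPM, was highest for Cacng5 at 17.3 CPM and Cacnb2 at 593.6. Cacng5 ranged as widely in LacZ unstressed mice, up to 16.4. The part of cell makeup in these levels was not tested.

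**Figure D5:**
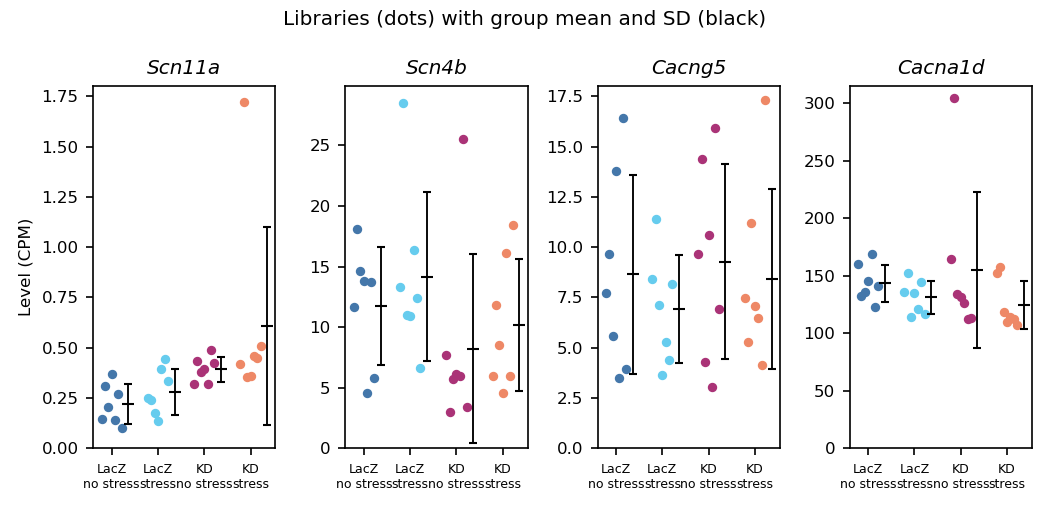
Levels in CPM of Scn11a, Scn4b, Cacng5 and Cacna1d by group, with 1 dot per library and the group mean and SD in black beside it. Single libraries reach 1.72 CPM for Scn11a and 304.1 CPM for Cacna1d, far above the rest of their groups.

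Other genes of the same machinery were read from a list of 46 partner genes, 40 of them tested: remaining family subunits, the sodium leak channel complex, anchoring proteins, release site proteins and HCN regulators. None was called in any of the 7 comparisons. For stress over both viruses 35 of 40 lay below 0 with a median of -0.18, including all 11 anchoring and modulating genes. Of all genes, 0% were called there and 53.7% lay below 0 with a median of -0.01. The smallest p belonged to Unc79, a subunit of the sodium leak channel complex, at -0.23 ± 0.09 (edgeR, adjusted p 1.000), also smallest for stress with LacZ at -0.20 ± 0.13. With the knockdown label the smallest was Ank3, the ankyrin that holds sodium channels at the axon initial segment, at -0.36 ± 0.16. For the label, Fgf11, an intracellular modulator of sodium channels, was at -0.26 ± 0.15 over both stress states and -0.37 ± 0.21 without stress. The retinal calcium channel Cacna1f had the smallest interaction p at -0.75 ± 0.41.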

How the data were processed

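The authors deposited unnormalized fragment counts from featureCounts 1.6.2, taken over the span of each gene in Ensembl release 90 (GRCm38), per the file headers, so introns are included, strand was not used, and fragments in overlapping genes were counted for neither. HISAT2, Subread and DESeq2 were named without a role, per the submitters' processing notes. Totals were 30.6 to 44.3 M per library (median 39.6). Symbols were matched for 52403 of 52636 genes.

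Counts were filtered by filterByExpr and given TMM factors, and edgeR 4.0.16 quasi-likelihood tests were run (limma 3.58.1, R 4.3.3), 1 coefficient per group over 28 libraries, with no covariates. A call needed an adjusted p (Benjamini-Hochberg) under 0.05. The test was checked on simulated counts, drawn with less spread than these libraries show and with no shared component. Such a check does not measure power or error rates in these data. Relations to the component and the mitochondrial share used log2 CPM with a prior count of 2 and 100000 permutations. Alternatives were DESeq2, limma voom with quality weights, other scalings and filters, components as covariates, each library left out and, chosen after seeing the data, accession order as a covariate.

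The members and lists were chosen with earlier results of these data known. Named were, per comparison, the 2 members with the smallest p, the highest per kb of each role, members whose highest library exceeded 1.5 times the next, and 3 members at each end of r with the component. Partner genes were named by the smallest p. Some items that these rules name are not reported here. Cacna2d3, Cacng5, Cacnb2, Scn8a and Cacnb4 were added after their values were seen.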

Additional observations from a re-analysis of the deposited data

Results flagged for a closer look

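In 10 of 80 sets of 1 gene in 1 group of 7, the highest library lay further from the others than Dixon's 95% limit for 7 values allows. Chance flags about 1 set in 20, but this count cannot be read against that share. Of the 10 genes concerned, all but Scn4b were examined because their highest library stood far above the next, and genes that follow the same library component are not independent.

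LacZ unstressed replicate 1 was far above its group in 6 genes: Cacna1g at 55.3 CPM (next 23.8), Cacna1i at 66.6 (next 29.9), Cacnb1 at 59.1 (next 27.1), Cacnb3 at 78.6 (next 35.7), Cacng8 at 1.46 (next 0.76) and Hcn3 at 8.99 (next 4.23). In knockdown-labelled unstressed replicate 2, Cacna1c reached 503.5 CPM (next 293.5) and Cacna1d 304.1 (next 164.7). Scn11a reached 1.72 CPM in knockdown-labelled stressed replicate 2 (next 0.507). Scn4b reached 25.5 CPM in knockdown-labelled unstressed replicate 6 (next 7.69).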

How the results depend on the processing

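No gene and no channel gene was called at an adjusted p under 0.05 in any of the 7 comparisons under the alternatives run, including 28 fits that each left out 1 library, DESeq2 and limma voom. At an unadjusted p under 0.05, edgeR gave 424 genes for stress over both viruses and 291 for the label, DESeq2 606 and 373, and voom 1258 and 1210. The median of the members for stress over both viruses stayed between -0.25 and -0.13 without single libraries. The count of members below 0 was not stable for the label: over both stress states it was 18, and 9 without LacZ unstressed replicate 1 and 11 under voom. For the label without stress it was 16, and 7 without that library and 26 without knockdown-labelled unstressed replicate 2. With stress it was 25, and 15 without LacZ stressed replicate 1, 13 under voom and 14 with 2 components as covariates. For the interaction it was 19, 12 without knockdown-labelled unstressed replicate 2 (median 0.11), and 25 without LacZ stressed replicate 3 or with accession order as a covariate, and the median was -0.20 without LacZ unstressed replicate 1. With that covariate it was 10 for the label over both stress states and 8 without stress. The causes were not tested. No paired analysis was possible because the labels carry no pairing: the replicate numbers follow accession order. Scn11a and Cacng8 could not be fitted under the filter of 1 CPM in 7 libraries. Depth limits the low genes: Scn11a rests on as few as 3 fragments and Cacng8 on 6.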
